A study of Mus musculus with 6 samples.

Results

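The 9 genes described here build or shape the flask-like pits of the endothelial surface called caveolae and the curved membranes of related uptake routes: Cav1, Cav2, Plvap, Ehd1, Ehd2, Ehd4, Pacsin2, Pacsin3 and Dnm2. They were chosen by symbol, for what their proteins do, with earlier results of these data known. All 9 were found among the 24421 genes of the count table. All 9 also passed the filter on low counts, which 12753 genes passed. RNA came from mouse endothelial cells derived from brain, which were grown with 20% fetal bovine serum and purified by fluorescence-activated cell sorting. The 3 libraries labelled KO carry the genotype label Fli-1 knockout, and the 3 labelled WT carry the label WT. The cells had spent 6 days beside a vascular niche in co-culture, following induced deletion, per the series' design text. The labels give the same treatment text, deletion of Fli-1 alleles by 4-OHT (an active form of tamoxifen, used to switch on inducible recombinases), for both groups. They name no recombinase, promoter, deleted exon, strain, animal age or sex. Separate cultures or animals within a group are not stated either, so p-values measure only the spread between these libraries, which may be technical.

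Caveolae are held up by a coat of caveolin and cavin proteins, with a ring of EHD ATPases and pacsin proteins at the neck. Dynamin is the GTPase that cuts membrane necks, best known from clathrin-coated pits. In blood vessels caveolae take part in the transport of proteins across the endothelium, in lipid handling and in the response to stretch. Endothelium of the healthy blood-brain barrier is known for few such vesicles and little of the diaphragm protein PLVAP, and brain endothelial cells often lose part of this state in culture.

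Totals lay between 17550185 and 21385951 counts per library, and values are given as CPM, the count divided by the TMM-scaled library size and set to the usual CPM scale. Fli1 itself went against the labels, at 76.8, 111 and 77.4 CPM in the libraries labelled KO and 45.3, 59.6 and 45.8 CPM in those labelled WT. A count per gene includes exons outside a deletion, so it does not check the deletion, and every direction below is that of the libraries labelled KO relative to those labelled WT. Same-numbered libraries of the groups deviated from their group means together, with correlations across genes of 0.776, 0.857 and 0.652, so each result is given for the groups and for the 3 same-numbered pairs. The endothelial label held: 12 of 12 endothelial markers were tested, with a summed level of 13500 to 16000 CPM, led by Cdh5, Pecam1 and Emcn.

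Cav1 and Cav2, which lie 17219 bases apart on the plus strand of chromosome 6, and Ehd4, on the minus strand of chromosome 2, were the 3 members that passed the paired test described below. Their promoters are printed for that reason, as the 250 bases before the RefSeq start (GRCm38.p6). They are written 5′ to 3′ on the gene's strand, with capitals for GGAA, the core bound by ETS factors such as Fli1, on either strand (TTCC is GGAA on the other strand).
Cav1, chr6:17306085-17306334, plus strand: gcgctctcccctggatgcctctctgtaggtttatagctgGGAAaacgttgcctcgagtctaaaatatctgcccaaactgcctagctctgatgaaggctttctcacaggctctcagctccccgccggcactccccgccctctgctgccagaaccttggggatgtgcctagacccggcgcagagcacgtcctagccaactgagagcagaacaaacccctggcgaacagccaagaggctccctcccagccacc
Cav2, chr6:17280935-17281184, plus strand: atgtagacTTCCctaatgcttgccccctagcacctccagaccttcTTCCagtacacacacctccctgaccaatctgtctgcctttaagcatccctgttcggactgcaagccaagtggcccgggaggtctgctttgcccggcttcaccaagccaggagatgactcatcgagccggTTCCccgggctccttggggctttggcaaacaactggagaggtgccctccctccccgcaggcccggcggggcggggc
Ehd4, chr2:120154576-120154825, minus strand: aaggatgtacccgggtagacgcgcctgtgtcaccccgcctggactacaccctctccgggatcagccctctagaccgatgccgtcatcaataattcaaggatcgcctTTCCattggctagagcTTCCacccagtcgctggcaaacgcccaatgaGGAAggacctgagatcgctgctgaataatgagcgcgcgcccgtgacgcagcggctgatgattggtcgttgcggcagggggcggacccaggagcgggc
The core occurred once in the Cav1 window and 3 times each in the Cav2 and Ehd4 windows. Of 32851 RefSeq windows of the same length, 93.4% held GGAA, with a median of 3 matches. The longer ETS motif CGGAAG, which contains GGAA, was in 13.6% of all windows and in 0 of these 3, and CCGGAAGT, which contains both, was in 2.9% and in 0 of these 3. A second RefSeq start of Cav1 had 3 GGAA matches, and the window of Ehd2 had 0. RefSeq windows were found for 7 members, and not for Plvap and Ehd1. These matches are descriptions of letters in a window, which nearly every promoter contains.

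The gene bodies of the members, as GENCODE M21 places them on GRCm38, lie on 7 chromosomes. On chromosome 6, Cav1 spans 17306335 to 17341452 and Cav2 17281185 to 17289115. On chromosome 2, Ehd4 spans 120089175 to 120154606 and Pacsin3 91255954 to 91264679. Plvap lies at 71497765 to 71511752 of chromosome 8, Ehd1 at 6276725 to 6300096 of chromosome 19 and Ehd2 at 15946958 to 15967567 of chromosome 7. Pacsin2 lies at 83375607 to 83464606 of chromosome 15 and Dnm2 at 21424908 to 21507759 of chromosome 9. A count per gene does not tell its transcripts apart. Pacsin3 shares 0.971% of its exon length with Gm17281 on the other strand, and the other members except Dnm2 share none.

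Cav1 was by far the most abundant member. Per length, as CPM per kb of annotated exon, it averaged 915 over the 6 libraries, with a range of 664 to 1090, and stood 17th among the 12684 tested genes with a length. Plvap, the protein of the thin diaphragm across caveola openings and fenestrae, averaged 255 CPM per kb (173 to 356). Cav2, the partner that joins Cav1 in its oligomers, averaged 180 (134 to 212), Ehd4 166 (122 to 199) and Ehd2 142 (132 to 160). The ranges of these 4 genes overlapped one another except that the lowest Plvap value lay above the highest Ehd2 value. Ehd1 averaged 55.9 CPM per kb (51.5 to 60.0), below every value of Ehd2. Pacsin2 averaged 36.9 (31.3 to 40.6) and Dnm2 32.6 (30.4 to 34.2), and their ranges overlapped. Pacsin3 came last at 1.06 CPM per kb (0.704 to 1.80). With the longest transcript as the length, the order was the same except for Dnm2 at 49.5 and Pacsin2 at 49.0. Cavin1, the main coat protein beside the caveolins, is not a member but is listed in the table by its older symbol Ptrf, and it averaged 337 CPM per kb (318 to 358), below every Cav1 value.

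**Figure D1:**
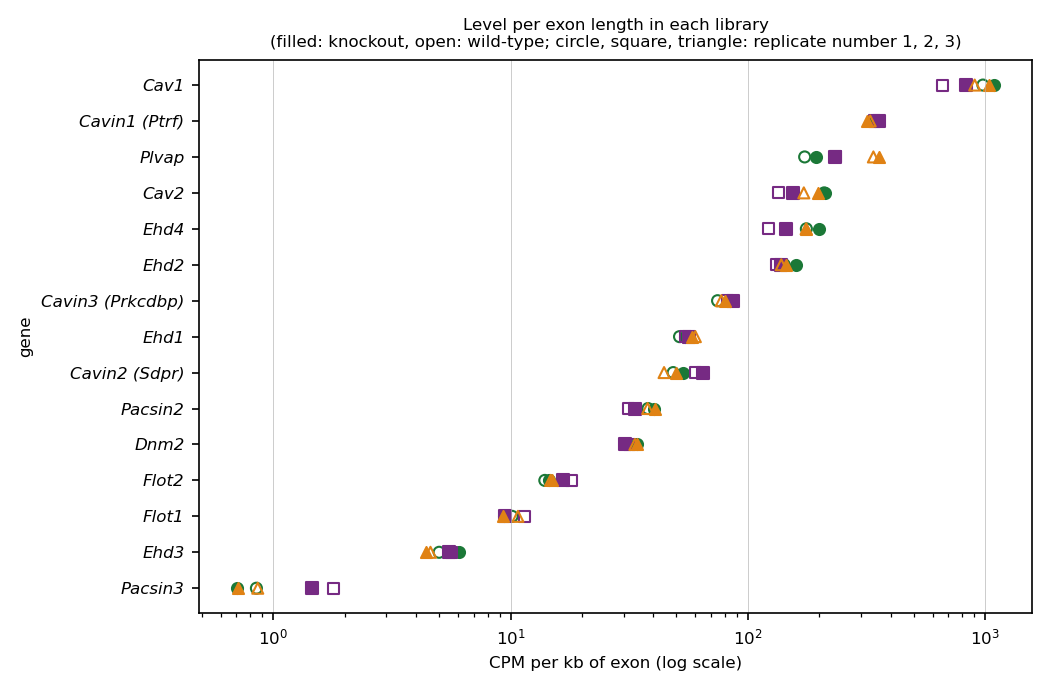
Level of each gene in each library as CPM per kb of annotated exon, on a log axis, for the 9 members and for cavins, flotillins and Ehd3; filled symbols are libraries labelled KO and open symbols those labelled WT, and the symbol shape gives the replicate number. Cav1 lies at 664 to 1090 and Pacsin3 at 0.704 to 1.80, with the other members in between.

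In the comparison of the groups, which asked whether the members differ between cells labelled KO and WT, none of the 9 passed. The edgeR quasi-likelihood test called 0 of 9 at a false discovery rate (FDR) of 0.05, against 0.00784% of all genes tested, and 0 of 9 had an unadjusted p under 0.05, against 4.79% of all genes. DESeq2 and limma-voom also called 0 of 9. The 2 groups overlapped for every member, while 10.2% of tested genes had groups that did not overlap, 5.25% with KO above and 4.96% with KO below. In the paired comparison, which adds the replicate number to the model, 3 of 9 members rose and 0 fell, against 4.81% of tested genes higher, 4.01% lower and 8.81% in either direction. The median paired log2 fold change was 0.10 over the members and -0.003 over all genes tested. The members were chosen with earlier results of these data known, and their share was not tested against that of all genes. Of the 9, 4 were higher and 1 was lower in all 3 pairs, against 20.5% and 20.2% of tested genes, or 40.7% with 1 sign in all 3 pairs. Changes were small: paired changes ran from -18.1% (Pacsin3, not called) to 16.7% (Cav1).

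**Figure D2:**
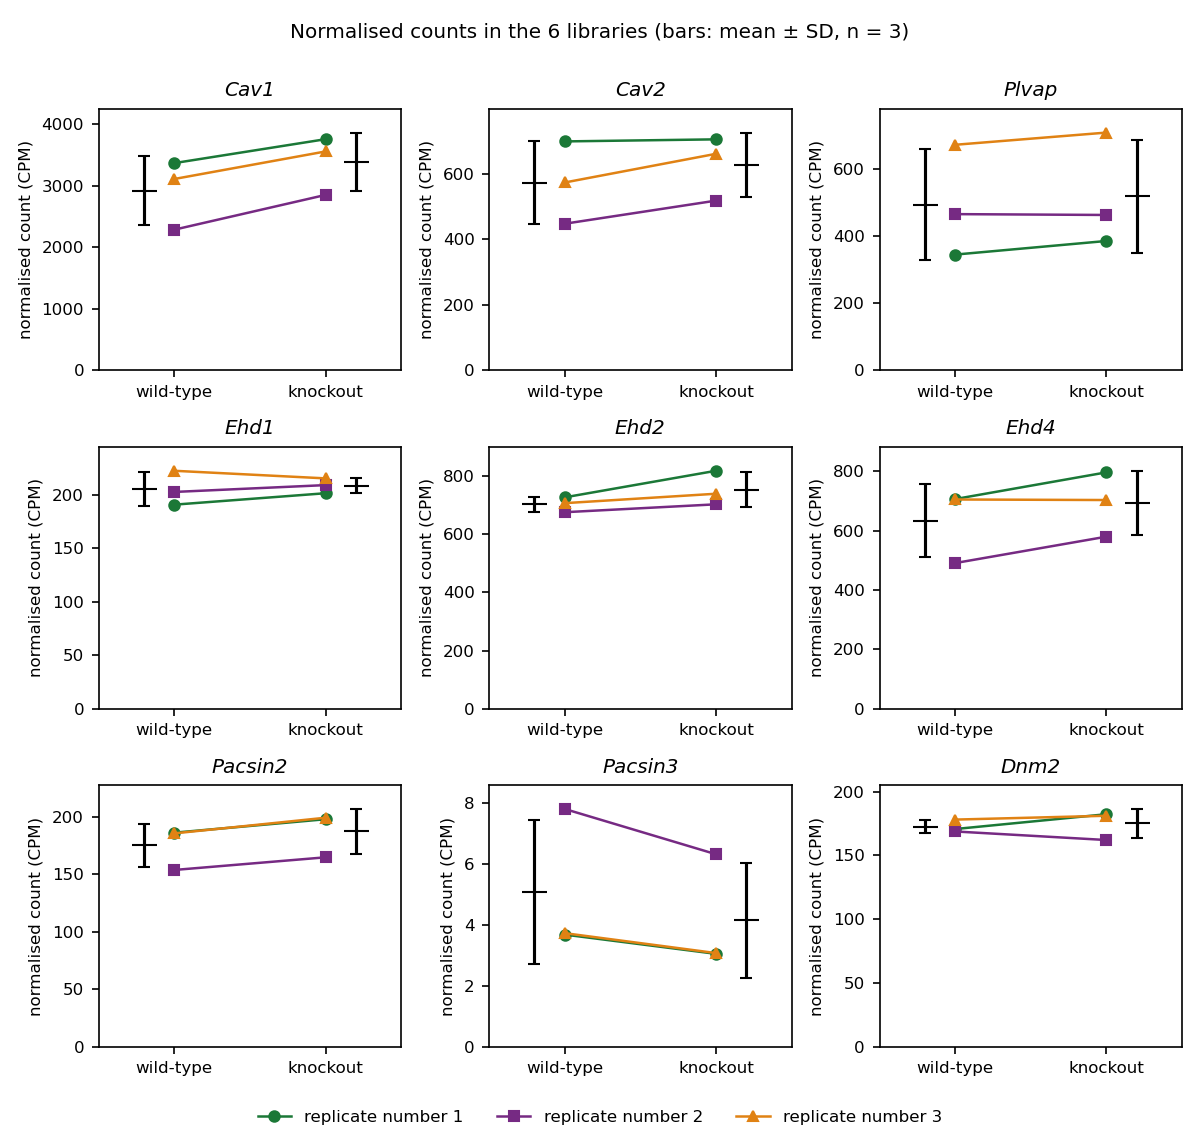
Normalised count (CPM) of the 9 members in the 6 libraries, with lines joining same-numbered libraries and black bars for the mean ± SD of each group (n = 3). The lines of Cav1 all go up from wild-type to knockout, and the groups overlap for every member. Replicate number 2 (squares) is lowest for Cav1, Cav2, Ehd2, Ehd4, Pacsin2 and Dnm2 and highest for Pacsin3.

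Among the caveolins, Cav1, the integral protein without which endothelial caveolae do not form, measured 3754, 2849 and 3555 CPM in KO replicates 1 to 3 and 3366, 2285 and 3108 CPM in WT replicates 1 to 3. Each KO library was above the WT library of its number, yet KO replicate 2 was below WT replicates 1 and 3, so the groups overlapped. The means were 3386 ± 475 and 2920 ± 565 CPM (SD, n = 3 each). In the group comparison the log2 fold change of Cav1 was 0.21 ± 0.17 (SE), with an edgeR adjusted p of 0.996. Paired, it was 0.22 ± 0.042 (SE), with an edgeR adjusted p of 0.000168 and log2 differences of 0.16, 0.32 and 0.19 in pairs 1, 2 and 3. Cav1 therefore passed in 1 design and not in the other. Without pair 2, which had the largest difference, the paired log2 fold change was 0.17 and the adjusted p 0.156. Cav1 did not pass at a minimum of 1.2-fold either. It passed in 10 of 12 alternatives of the paired comparison, against 5 of 12 each for Cav2 and Ehd4. These alternatives reuse the same libraries.

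Cav2 measured 705, 518 and 661 CPM in the KO libraries and 699, 448 and 574 CPM in the WT libraries. Pairs 2 and 3 differed, by 0.21 each on the log2 scale, and pair 1 hardly did, by 0.013. The paired log2 fold change was 0.14 ± 0.042 (SE, edgeR adjusted p = 0.0251), against 0.13 ± 0.19 (SE, adjusted p = 0.996) for the groups. This call was lost without pair 2 (0.11, adjusted p = 0.49), without pair 3 (0.11, adjusted p = 0.167) in DESeq2 with the block (0.14, adjusted p = 0.101) and with scaling by library size alone (0.12, adjusted p = 0.0816). Without WT replicate 2 the group comparison gave -0.02 for Cav2, below 0 as for Ehd4 (-0.03). Within a library there were 4.82 to 5.50 Cav1 counts for each Cav2 count. The third caveolin, Cav3 of muscle, had 1 read in 1 library and 0 in the other 5.

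Plvap varied most over replicate numbers among the abundant members. It measured 385, 463 and 708 CPM in the KO libraries and 345, 465 and 671 CPM in the WT libraries, with both libraries of number 1 at the bottom and both of number 3 at the top. The mean of number 3 was 1.89 times that of number 1. The paired change between labels was 5.4%, or 0.08 ± 0.041 (SE) on the log2 scale, with an edgeR adjusted p of 0.30. Its differences were 0.16, -0.008 and 0.08 in pairs 1, 2 and 3. The highest over the lowest of 3 means and a ratio of 2 groups are unlike measures, so their sizes are not compared. Plvap did not pass in either design. Leaving out 1 library turned its direction in the group comparison, from -0.22 without KO replicate 3 to 0.36 without WT replicate 3.

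The EHD proteins are ATPases that bend and tubulate membrane: EHD2 sits at the caveola neck and steadies caveolae at the surface, while EHD1 and EHD4 act in caveolae and in recycling endosomes. Ehd4 measured 797, 580 and 703 CPM in the KO libraries and 707, 491 and 705 CPM in the WT libraries. Pairs 1 and 2 differed, by 0.17 and 0.24 on the log2 scale, and pair 3 did not, at -0.004. Its paired log2 fold change was 0.14 ± 0.043 (SE, edgeR adjusted p = 0.0373), and it lost the call without pair 1 (0.12, adjusted p = 0.0678) or without pair 2 (0.08, adjusted p = 0.65), in DESeq2 with the block (adjusted p = 0.152) and with scaling by library size alone (adjusted p = 0.107). Ehd2 measured 819, 704 and 740 CPM in the KO libraries and 728, 677 and 708 CPM in the WT libraries. It was higher in all 3 pairs, by 0.17, 0.06 and 0.07, and did not pass (0.10 ± 0.041 (SE), adjusted p = 0.14). Ehd1 measured 202, 209 and 215 CPM in the KO libraries and 191, 203 and 223 CPM in the WT libraries. Its 6 values lay within 191 to 223 CPM, with a paired log2 fold change of 0.03 ± 0.042 (SE, adjusted p = 0.798) that turned to -0.001 when libraries were scaled by size alone.

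Of the pacsins, F-BAR proteins that curve membrane at caveola necks, Pacsin2 is the broadly expressed form and Pacsin3 is best known from muscle. Pacsin2 measured 198, 165 and 199 CPM in the KO libraries and 186, 154 and 186 CPM in the WT libraries. Its differences were 0.09, 0.10 and 0.10 in the 3 pairs, with an SD of 0.008, the most even of the 9 members, and the paired log2 fold change of 0.10 ± 0.041 (SE) had an adjusted p of 0.158. Pacsin3 had 53 to 164 reads per library, at 3.05, 6.31 and 3.07 CPM in the KO libraries and 3.68, 7.79 and 3.72 CPM in the WT libraries. It was lower in all 3 pairs, by -0.26, -0.30 and -0.27, and did not pass (-0.29 ± 0.15 (SE), adjusted p = 0.263). Dnm2, the broadly expressed dynamin, measured 182, 162 and 181 CPM in the KO libraries and 171, 169 and 178 CPM in the WT libraries. Its paired log2 fold change was 0.02 ± 0.043 (SE, adjusted p = 0.849), with pair 2 at -0.06, and it turned to -0.006 with scaling by library size alone. Dnm2 lies on chromosome 9 as Fli1 does, 10914444 bases away. Of its exon length 3.88% overlaps Tmed1 on the other strand, and the strand setting of the counting is not given in the sources used here.

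**Figure D3:**
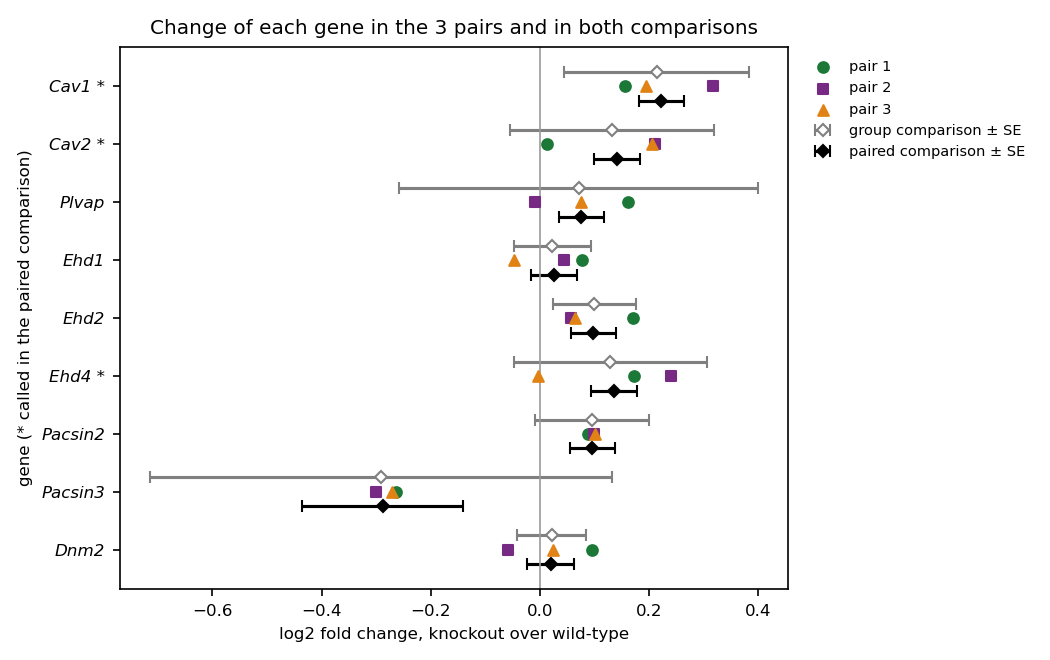
Log2 fold change of each member, knockout over wild-type, in pairs 1, 2 and 3 (coloured symbols), in the group comparison (open diamonds ± SE) and in the paired comparison (black diamonds ± SE); asterisks mark genes called in the paired comparison. For each member the standard error is wider in the group comparison than in the paired one, least so for Dnm2 (0.063 against 0.043). The 3 pairs of Pacsin2 nearly coincide at 0.09 to 0.10.

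Levels of several members also differed between replicate numbers. The means per number of Cav1 were 3560, 2567 and 3332 CPM for numbers 1, 2 and 3, a span (highest over lowest) of 1.39 times. The paired difference between labels was 1.17-fold. A span over 3 means and a ratio of 2 groups are unlike measures, so their sizes are not compared. Number 2 was also lowest for Cav2 (spanning 1.45 times), Ehd4 (1.40 times) and Pacsin2 (1.21 times), and highest for Pacsin3 (2.10 times). Ehd2 and Dnm2, also lowest in number 2, spanned 1.12 and 1.09 times, and Ehd1 spanned 1.12 times. Of the 11 fibroblast markers 11, and of the 12 mural cell markers 10, were also highest in number 2, the other mural markers, Tagln and Rgs5, in number 3. Col1a1, a fibroblast collagen, stood at 71.0, 508 and 220 CPM in the KO libraries and 88.5, 730 and 239 CPM in the WT libraries, and was thus also lower in the KO library of each pair. The fibroblast markers summed to 140 to 1030 CPM in the KO libraries and 180 to 1420 CPM in the WT libraries. In the paired comparison 3 of the 8 tested were called lower and 1 higher. Of the fibroblast markers, Col1a2 reached 281 CPM, Col3a1 222 CPM, Thy1 149 CPM and Dcn 20.7 CPM, and Lum and Dpt were at or near 0. The mural cell markers summed to 2310 to 3010 and 2270 to 3300 CPM, most of it Tagln, Mcam and Acta2. Of the 11 tested, 3 were called lower and 0 higher in the paired comparison. The group comparison called 0 markers of either list. The part of these cells in the member changes was not tested. In bulk RNA, fewer cells of a type and less RNA per cell cannot be told apart. With libraries scaled to the summed endothelial markers, an alternative chosen after seeing the data, Cav1 was higher by 0.17 with an adjusted p of 0.00692, and Cav2 (0.09, adjusted p = 0.333) and Ehd4 (0.09, adjusted p = 0.371) no longer passed.

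Adipocytes are also rich in caveolae, and their markers were low, unlike the summed mural cell markers given above. Markers of further cell types and states are given with them. Marker calls, rises and falls given here are those of the paired comparison, which called 8.81% of all genes tested. The group comparison called 0 genes of any marker list. Of 8 adipocyte markers, Plin1, Lep and Cfd had 0 reads, the 3 tested were not called, and the sum was 16.1 to 18.1 CPM in either group. The muscle cavin Cavin4, listed as Murc, stayed at or below 0.408 CPM. Of 14 blood cell markers 6 had 0 reads, Ptprc was at or below 0.334 CPM, and 2 of 3 tested were higher, led by Laptm5. The sums were 121 to 240 and 89.3 to 201 CPM. The 14 glial and neuronal markers summed to 14.8 to 22.4 CPM, with 1 of 4 tested lower, the 7 epithelial markers to 5.82 to 12.2 CPM, with 0 of 2 called, and the 6 lymphatic markers to 265 to 297 CPM, almost all Flt4, with 0 of 3 called. Of the endothelial markers 2 rose, Emcn and Tek, and 0 fell. All 10 proliferation markers rose, with summed levels of 272 to 452 CPM in the KO libraries and 158 to 247 CPM in the WT libraries. Of 12 handling and stress genes 7 fell and 0 rose, with sums of 632 to 726 and 795 to 923 CPM. The parts of proliferation and handling in the member changes were not tested.

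Among the 11 cavins, flotillins and caveola-associated genes, 8 were tested, 1 rose and 0 fell in the paired comparison, with a median of 0.045. Cavin1 (Ptrf) measured 1225, 1285 and 1142 CPM in the KO libraries and 1198, 1228 and 1175 CPM in the WT libraries. It was not called (0.02 ± 0.040 (SE), adjusted p = 0.853), and its value was -0.008 with scaling by library size alone. Cavin2 (Sdpr), a cavin that helps to bend the membrane, rose from 148, 184 and 135 CPM to 164, 198 and 152 CPM, by 0.14 on the log2 scale (adjusted p = 0.0308). Unlike the caveolins it was highest in replicate number 2. Without pair 2 its log2 fold change was 0.15 and its adjusted p 0.214, and without pair 3 the adjusted p was 0.13. It also did not pass in DESeq2 with the block (adjusted p = 0.214), with scaling by library size alone (0.0946) or with scaling to endothelial markers (0.436). Cavin3 (Prkcdbp) had a log2 fold change of 0.10 (adjusted p = 0.186), with 22.5% of its exon length overlapped by Gm45667 on the other strand. Ehd3 (0.07, adjusted p = 0.61), Flot2 (-0.02, adjusted p = 0.907), Ehbp1 (-0.19, adjusted p = 0.291) and Ror1 (0.34, adjusted p = 0.66, at 0.408 to 1.29 CPM) did not pass. Flot1, a scaffold of flat lipid rafts, was the 1 gene of this list whose groups did not overlap, as for 10.2% of tested genes. It measured 27.2 ± 0.214 CPM in the KO libraries and 31.2 ± 1.93 CPM in the WT libraries (SD, n = 3 each). It was not called in either design (paired log2 fold change -0.20, edgeR adjusted p = 0.0594). It passed without pair 1 (adjusted p = 0.0356), with scaling by library size alone (0.0265) and with scaling to endothelial markers (0.0292). Without pair 2 (0.463), without pair 3 (0.134) and in DESeq2 with the block (0.563) it did not pass.

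Over all 8 lists of related genes, which held 140 tested genes beside the members, 10 rose and 6 fell in the paired comparison and the median was 0.001. That is 11.4% called, near the 8.81% of all tested genes, and no list's share was tested against it. The group comparison with edgeR called 0 of them. Of the called genes named below, Srebf2, Insig1, Efnb2, Srgap1, Lrp1 and Aqp1 also passed in DESeq2 with the block. Nos3, Scarb1, Prkca, Ezr, Hip1r, Snx33, Fcho2 and Abca1 did not, with adjusted p from 0.105 (Nos3) to 0.492 (Prkca). With scaling by library size alone Nos3 (adjusted p = 0.0661), Prkca (0.0836) and Hip1r (0.124) did not pass either. In caveola signalling and transcytosis, 4 of 18 rose and 1 fell (27.8% called). Nos3, the endothelial nitric oxide synthase that binds caveolin-1, measured 368, 235 and 344 CPM in the KO libraries and 325, 203 and 333 CPM in the WT libraries, and rose by 0.15 ± 0.042 (SE) on the log2 scale, with an adjusted p of 0.0199. Like Cav1 it was lowest in number 2, and without pair 2 it had an adjusted p of 0.447. Scarb1, a lipoprotein receptor, rose by 0.18 and Prkca, a protein kinase C, by 0.21, while Lrp1, a large scavenger receptor, fell by 0.44. Lrp1 followed the stromal pattern over numbers, at 23.2, 188 and 74.5 CPM in the KO libraries and 37.4, 261 and 88.0 CPM in the WT libraries. Without pair 2, Lrp1 still passed (-0.43, adjusted p = 2.72e-06), and Nos3, Scarb1 (adjusted p = 0.275) and Prkca (adjusted p = 0.169) did not. Prkca also lost its call without pair 1 (adjusted p = 0.169) and without pair 3 (adjusted p = 0.11).

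Of 21 lipid raft and membrane lipid genes, 3 rose and 1 fell (19% called). Srebf2, the transcription factor of sterol synthesis, had groups that did not overlap, as did 10.2% of all tested genes. It stood at 88.0 to 90.7 CPM against 69.8 to 75.0 CPM, and rose by 0.31 ± 0.049 (SE, adjusted p = 9.12e-06). Insig1, which restrains its processing, rose by 0.33, and the lipid exporter Abca1 fell by 0.14. These 3 genes still passed without pair 2, while Abca1 had an adjusted p of 0.425 without pair 3. Of 12 genes related to fenestrae and diaphragms, a list that includes Plvap, Ezr and Efnb2 rose by 0.28 and 0.20, and the water channel Aqp1 fell by 0.69, so that 25% were called. Aqp1 ranged from 0.522 to 10.8 CPM in the KO libraries and from 1.02 to 21.2 CPM in the WT libraries, lowest in number 3 of each, and it alone of the 3 passed without pair 2. Without pair 1, Aqp1 had an adjusted p of 0.202 and Ezr one of 0.0632.

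Of 31 BAR domain genes 3 fell and 0 rose, or 9.68% called: Srgap1 by 0.37, Snx33 by 0.24 and Fcho2, which starts clathrin pits, by 0.19, and without pair 2 only Srgap1 passed (-0.41, adjusted p = 4.09e-05). Of 27 clathrin coat and adaptor genes 1 rose, Hip1r by 0.14, which had an adjusted p of 0.605 without pair 2 and 0.0505 without pair 1, and 0 fell (3.7% called). None of the 6 dynamin-related genes and none of the 19 recycling endosome partners of EHD proteins was called by edgeR in either design. The medians of these 4 lists lay between -0.034 and 0.002.

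**Figure D4:**
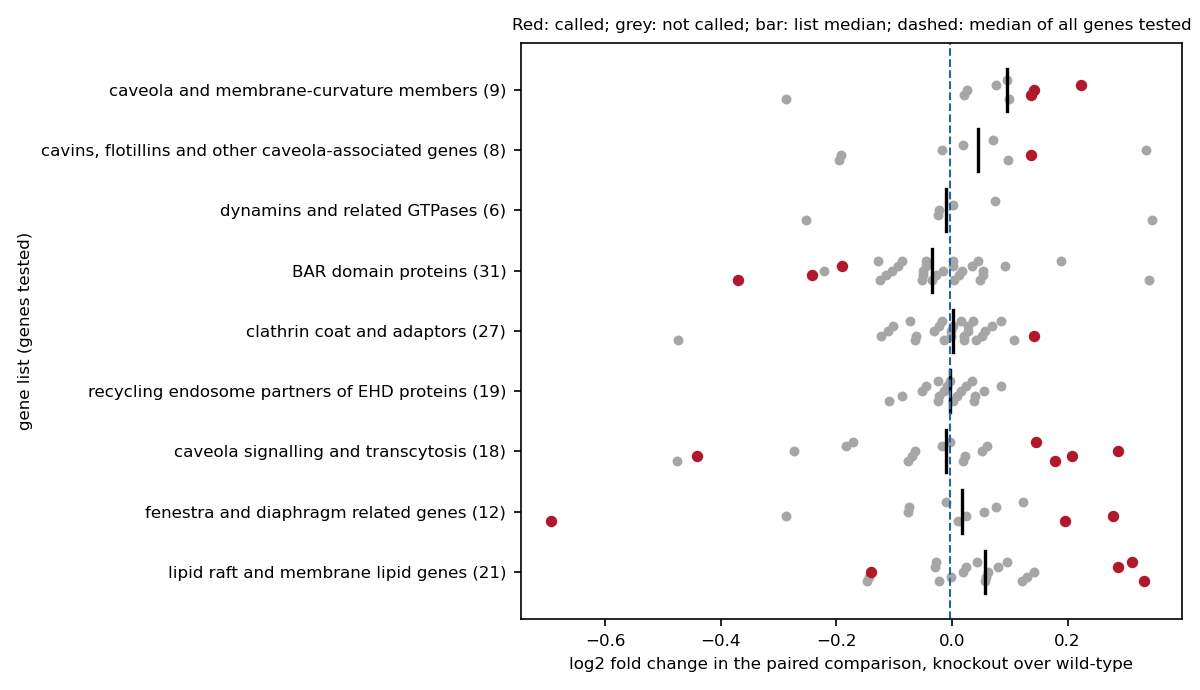
Paired log2 fold change of each tested gene, by list, with called genes in red, others in grey, the list median as a black bar and the median of all tested genes as a dashed line. The members' median of 0.10 lies to the right of the medians of the 8 lists of related genes plotted, which run from -0.034 to 0.057.

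Over the 6 libraries the genes most like Cav1 in log2 CPM, by Pearson correlation among all tested genes, were Fam101b (0.996), A630077J23Rik (0.994), C1qtnf9 (0.994) and Sun1 (0.994). Those most like Plvap were Rpl19 (0.992), Plekho2 (0.988), Cbr3 (0.987), Ndufb5 (0.986) and B4galt5 (0.983). These values describe 6 libraries that share replicate numbers and come from a search over all genes, so no test is given. The 2 lists shared no gene, and Cav1 was lowest in number 2 and Plvap in number 1.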

How the data were processed

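Polyadenylated RNA of 6 libraries was sequenced, 3 labelled KO and 3 labelled WT. The deposited table holds raw read counts per gene symbol, made by the authors with STAR 2.6.1d and featureCounts of Subread 1.6.4 after Trim Galore 0.6.4, on mm10 (GRCm38), per the submitters' processing notes. The labels name a stranded and a non-stranded TruSeq kit without saying which sample had which. The sources used here give neither annotation nor strand setting. No 50-base window was shared between annotated transcripts of the caveolins, EHD proteins, pacsins or dynamins.

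These counts were tested by edgeR 4.0.16 (R 4.3.3) after filterByExpr (12753 genes kept) and TMM scaling (factors 0.983 to 1.02), using glmQLFit in its robust form, with Benjamini-Hochberg adjustment over all genes and an FDR of 0.05. The group comparison, without a block, is the primary one. The paired comparison adds the replicate number as a block, since all 3 same-number correlations exceeded 0.1 while the labels state no pairing. The biological coefficient of variation was 0.189 without and 0.0383 with the block, with 4 and 2 residual degrees of freedom. An exact permutation test could not go below p = 0.1 for 3 against 3 libraries, nor below 0.25 for 3 pairs. DESeq2 1.42.0, limma-voom 3.58.1 and other scalings, filters and left-out libraries were alternatives. Every pair of libraries differed by more than sampling noise, with chi-square over its degrees of freedom at 5.44 to 40.7. Symbols were matched to GENCODE M21 (98.5%) for positions and lengths.

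Members and lists were chosen with earlier results of these data known. Named genes were all members, Fli1, all tested genes of the cavin list, up to 6 called genes of each other list of related genes by unadjusted p, the 3 most abundant of each marker list where these bear on a result, and the 5 genes most like Cav1 and Plvap. Other marker genes were named after their values were seen. Of the genes this rule names, 2 are not reported here.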

Additional observations from a re-analysis of the deposited data

How the results depend on the processing

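The 3 called members did not keep their calls under every alternative, and the calls depended on the replicate block. Without the block, edgeR, DESeq2 and limma-voom called 0 members, and so did edgeR under the other settings and with any 1 library left out. With the replicate block edgeR called 3 members higher. Of all genes, edgeR with the block called 613 higher and 511 lower, against 0 and 1 without it. For related genes the block gave 10 higher and 6 lower, against 0 and 0. DESeq2 without the block called 11 higher and 7 lower of all genes and 1 related gene higher, while limma-voom and an FDR of 0.01 called 0 lower. Leaving out 1 library gave 0 to 1 genes lower.

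In the paired comparison, members called higher numbered 1 with DESeq2, 1 with library size alone, 1 at an FDR of 0.01, 1 with scaling to endothelial markers, 0 at a minimum of 1.2-fold and 0 to 2 with a pair left out (0 without pair 2). All genes higher and lower numbered 264 and 111 with DESeq2, 388 and 259 at an FDR of 0.01, 154 and 53 at a minimum of 1.2-fold, 339 to 603 and 205 to 600 with a pair left out (339 and 205 without pair 2), and 324 and 702 with scaling to endothelial markers. With library size alone (471 and 734) 39.1% of calls were higher and with scaling to endothelial markers 31.6%, against 54.5%. Related genes higher and lower numbered 3 and 3 with DESeq2, 6 and 16 with library size alone, 6 higher at an FDR of 0.01, 0 and 2 at a minimum of 1.2-fold, 3 and 15 with scaling to endothelial markers, and 3 to 9 and 4 to 9 with a pair left out (3 higher without pair 2). The cause was not tested.

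Directions turned, for values not called in that comparison, in these cases. With library size alone, without and with the block, Ehd1 was at -0.003 and -0.001, Dnm2 at -0.006 and -0.006 and Ptrf at -0.006 and -0.008. With scaling to endothelial markers they were at -0.025, -0.031 and -0.032.
With a library or pair left out, group values ran from -0.22 to 0.358 for Plvap, -0.027 to 0.085 for Ehd1, -0.008 to 0.075 for Dnm2, -0.022 to 0.299 for Cav2, -0.03 to 0.242 for Ehd4, -0.726 to 0.157 for Pacsin3, -0.02 to 0.064 for Ptrf, -0.033 to 0.194 for Ehd3, -0.096 to 0.092 for Flot2, -0.028 to 0.661 for Ror1, -1.402 to 0.599 for Lrp1, -0.371 to 0.045 for Abca1, -1.242 to 0.075 for Aqp1, -0.015 to 0.245 for Hip1r and -0.063 to 0.312 for Nos3. Paired values ran from -0.003 to 0.062 for Ehd1, -0.019 to 0.057 for Dnm2, -0.046 to 0.131 for Ehd3, -0.018 to 0.808 for Ror1, -0.007 to 0.049 for Ptrf and -0.058 to 0.036 for Flot2. Scaling to endothelial markers was chosen after seeing the data. Depth limits Pacsin3, with 53 to 164 reads, and Ror1, with 8 to 27.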
